A study of Mus musculus with 79 samples.

Results

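Chemokines are small secreted proteins that direct the movement of leukocytes, and chemokine receptors are the G protein-coupled receptors that sense them. The genes described here were all genes of the deposited count table whose symbol is Ccl, Cxcl, Ccr or Cxcr followed by a number and at most 1 letter, together with Cx3cl1, Cx3cr1 and Xcr1. That rule took 56 of 24033 genes, and the 34 with a mean of at least 0.5 CPM (counts scaled to a common library size) over the Input libraries are reported, 25 ligands and 9 receptors. Just inside that limit stood Ccr7 at 0.506 CPM and Cxcl1 at 0.541 CPM, and just outside it Cxcr5 at 0.431 CPM and Ccl3 at 0.415 CPM. Of the 22 genes below it, 5 had no count in any library (Ccl19, Ccl21a, Ccl21b, Ccl21c and Ccl27b), and the Ccl21 and Ccl27 genes have near-identical copies among which reads can be split or lost. The others were Ccl20, Ccl26, Ccl3, Ccr3, Ccr4, Ccr6, Ccr8, Ccr9, Cxcl15, Cxcl17, Cxcl2, Cxcl3, Cxcl5, Cxcr1, Cxcr2, Cxcr5 and Xcr1, with 3 to 222 counts each over all Input libraries. Of the 22, 6 had enough counts to be tested in Input and 10 in IP.

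The study followed mouse dorsal root ganglia, the clusters of sensory neuron cell bodies beside the spinal cord, at lumbar levels 4 and 5 after both sciatic nerves were crushed. All 79 libraries came from the BAC-TRAP line BR145-GFP, naive or at 1, 12, 24, 48 or 72 h or 7 d after crush. In such lines a GFP-tagged ribosomal protein lets translating RNA of the tagged cells be pulled down with an antibody. Input libraries hold total RNA of the ganglia, with 7 naive libraries and 5, 6, 5, 6, 7 and 4 at the 6 times in order. IP libraries hold RNA pulled down with anti-GFP on magnetic beads, in the same numbers except 4 at 24 h. Which cells carry GFP in this line, the age and the sex were not stated in the labels used here, and no label says whether libraries of a group came from separate animals. P-values therefore measure the spread between libraries, which may be technical in part.

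In peripheral nerve injury, chemokines are best known for bringing monocytes and neutrophils to the damaged nerve and for the macrophage response around axotomised neurons. CC ligands such as Ccl2 and Ccl7 attract monocytes through Ccr2, CXC ligands such as Cxcl1 attract neutrophils through Cxcr2, and Cxcl9 and Cxcl10 are induced by interferon and attract T cells through Cxcr3. Cxcl12 with Cxcr4 and the membrane-bound Cx3cl1 with Cx3cr1 act also in intact tissue, the latter pair between neurons or endothelium and macrophages. Many chemokine promoters are known to respond to NF-kB, AP-1 or interferon-regulated factors.

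Several of the reported genes lie in clusters (mouse build GRCm38, the build of the deposited counts). On chromosome 11, Ccl2, Ccl7, Ccl11, Ccl12, Ccl8 and Ccl1 follow each other between positions 82035577 and 82179812. Ccl22, Cx3cl1 and Ccl17 lie on chromosome 8 between 94745684 and 94812038. Outside these clusters lie Ccl27a on chromosome 4 at 41769467 to 41774225, Cxcl12 on chromosome 6 at 117168535 to 117181368, Cxcl13 on chromosome 5 at 95956939 to 95961068, Cxcl14 on chromosome 13 at 56288643 to 56296811 and Cx3cr1 on chromosome 9 at 120048683 to 120068296. RefSeq promoter sequences (250 bases before to 50 after the gene's start, GRCm38.p6) were at hand for 23 of the 34 genes. The following were chosen for display because Ccl8 and Ccl12 are neighbours with unlike time courses, Ccl9 and Cx3cl1 rose at different times, and Cxcl10, which passed no test against naive, matched 3 of the 4 motifs searched.
Ccl8 (chr11:82114935-82115234, + strand): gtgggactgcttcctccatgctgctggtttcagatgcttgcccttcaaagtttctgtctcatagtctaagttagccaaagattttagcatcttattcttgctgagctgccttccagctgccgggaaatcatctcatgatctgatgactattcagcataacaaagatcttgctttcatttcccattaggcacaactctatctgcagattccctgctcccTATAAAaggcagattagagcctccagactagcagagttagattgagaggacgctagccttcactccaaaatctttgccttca
Ccl12 (chr11:82101595-82101894, + strand): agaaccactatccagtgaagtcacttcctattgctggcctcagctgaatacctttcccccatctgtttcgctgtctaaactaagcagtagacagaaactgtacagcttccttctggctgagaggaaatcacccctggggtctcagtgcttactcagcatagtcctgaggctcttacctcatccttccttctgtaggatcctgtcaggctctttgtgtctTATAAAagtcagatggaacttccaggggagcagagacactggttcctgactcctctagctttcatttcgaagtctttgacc
Ccl9 (chr11:83578587-83578886, - strand): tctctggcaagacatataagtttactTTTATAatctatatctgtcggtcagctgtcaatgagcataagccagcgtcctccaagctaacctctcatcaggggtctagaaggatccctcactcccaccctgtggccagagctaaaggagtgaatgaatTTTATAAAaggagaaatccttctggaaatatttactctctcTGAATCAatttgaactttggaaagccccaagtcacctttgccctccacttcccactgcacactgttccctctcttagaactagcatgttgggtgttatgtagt
Cxcl10 (chr5:92348840-92349139, - strand): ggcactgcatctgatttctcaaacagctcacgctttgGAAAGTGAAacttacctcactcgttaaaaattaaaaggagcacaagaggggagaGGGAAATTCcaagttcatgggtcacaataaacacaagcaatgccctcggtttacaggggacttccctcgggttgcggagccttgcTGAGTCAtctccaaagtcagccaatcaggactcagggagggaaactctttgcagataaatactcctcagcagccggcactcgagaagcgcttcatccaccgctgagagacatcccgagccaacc
Cx3cl1 (chr8:94771930-94772229, + strand): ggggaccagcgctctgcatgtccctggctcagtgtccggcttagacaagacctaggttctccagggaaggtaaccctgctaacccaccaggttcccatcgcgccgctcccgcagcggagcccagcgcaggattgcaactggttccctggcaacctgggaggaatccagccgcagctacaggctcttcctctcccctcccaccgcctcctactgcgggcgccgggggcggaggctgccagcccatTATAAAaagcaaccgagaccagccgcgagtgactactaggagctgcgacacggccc
Each sequence reads 5′ to 3′ on the gene's strand, and the capitals mark matches, on either strand, to the core promoter box TATAAA, the AP-1 site TGANTCA, the NF-kB core GGGANNTTC or the interferon-stimulated response element core GAAANNGAA. In Ccl8 and Ccl12 the TATAAA began at positions 219 and 220 of the 300 bases shown. Cxcl10 held the interferon element at position 38, the NF-kB core at 92 and the AP-1 site at 177. In Ccl9 the capitals cover 3 matches to TATAAA or its reverse complement, of which those at 157 and 159 overlap, and an AP-1 match at 198. In Cx3cl1 a TATAAA began at 245. Over all 32851 promoters of the table, TATAAA occurred in 13.6%, AP-1 in 7.81%, the NF-kB core in 3.94% and the interferon element core in 8.56%. Of the 23 chemokine promoters, 8, 5, 4 and 5 held them, and Cxcl9, which is not shown, matched all 4 motifs. A match is a description of letters and not evidence of a bound site.

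Input libraries held 8737964 to 22221882 gene counts and IP libraries 3614942 to 16721527. The share of counts on Rn45s and Lars2, 2 genes that collect ribosomal RNA reads, lay between 1.64% and 25.5% in Input libraries, while IP libraries reached 1.37% to 75.1%, where 6 libraries (2 each at 1, 12 and 48 h) were over 50%. Xist counts exceeded Ddx3y counts in none of the 12 h libraries and in all of the 48 h libraries, so these groups differed in sex-linked genes. The nerve injury genes Atf3, Sox11, Gap43 and 2 others used as a check all rose in both fractions from 24 h to 7 d. The pulldown was not richer in neuronal RNA: of 10 neuron marker genes, 2 were higher and 7 lower in IP than in Input of naive ganglia.

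Log2 changes below are given with their standard error and come from edgeR's quasi-likelihood test with Benjamini-Hochberg adjustment over all genes tested, and rose or fell means an adjusted p under 0.05. Levels are CPM after TMM scaling, given as mean ± SD or per library. Each time in Input was compared with the same 7 naive libraries, so the comparisons share their controls. At 1 h no chemokine gene rose and 7 of 34 fell, beside 4.8% of 16217 tested genes higher and 5.46% lower. The 1 h count rested on the choice of libraries. In a fit of naive and 1 h libraries alone it was 2, with 23 of all genes called. It was 4, 11 and 3 without Input 1 h replicates 1, 3 and 4, and 11, 4, 12, 4 and 4 without Input naive replicates 1, 2, 3, 5 and 7. At 12 h the chemokine counts were 0 up and 3 down (all genes 3.1% and 1.89%), and none passed in a fit of naive and 12 h alone. At 24 h they were 2 up and 1 down (7.26% and 4.29%). At 48 h, 8 rose and 7 fell (18% and 18.1%). At 72 h, 8 rose and 2 fell (12.2% and 11.2%). At 7 d, 10 rose and 7 fell (28.3% and 25.1%). Over all times together 25 of 34 differed from naive, beside 68.5% of all genes, among them Ccl6 (adjusted p = 0.020) and Cxcr3 (adjusted p = 0.0498), which passed at no single time. At 7 d and over all times the share of members called was near that of all genes.

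The median log2 change of the 34 genes in Input was, over the 6 times in order, -0.65, -0.24, -0.38, -0.31, 0.17 and 0.30, while the median of all genes lay between -0.03 and 0.03. At 1 h 26 of the 34 were below naive and at 7 d 21 were above it. Libraries of a time and naive libraries did not overlap for 2 genes at 1 h, both lower, and for none at 12 or 24 h. Later they were apart for 2 higher and 2 lower at 48 h, 3 higher at 72 h, and 6 higher and 2 lower at 7 d. The share of all genes without overlap was not counted, so these counts are not read as a trait of the chemokine genes. The heatmap of changes shows these columns turning from mostly lower at 1 h to mixed at 7 d.

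**Figure D1:**
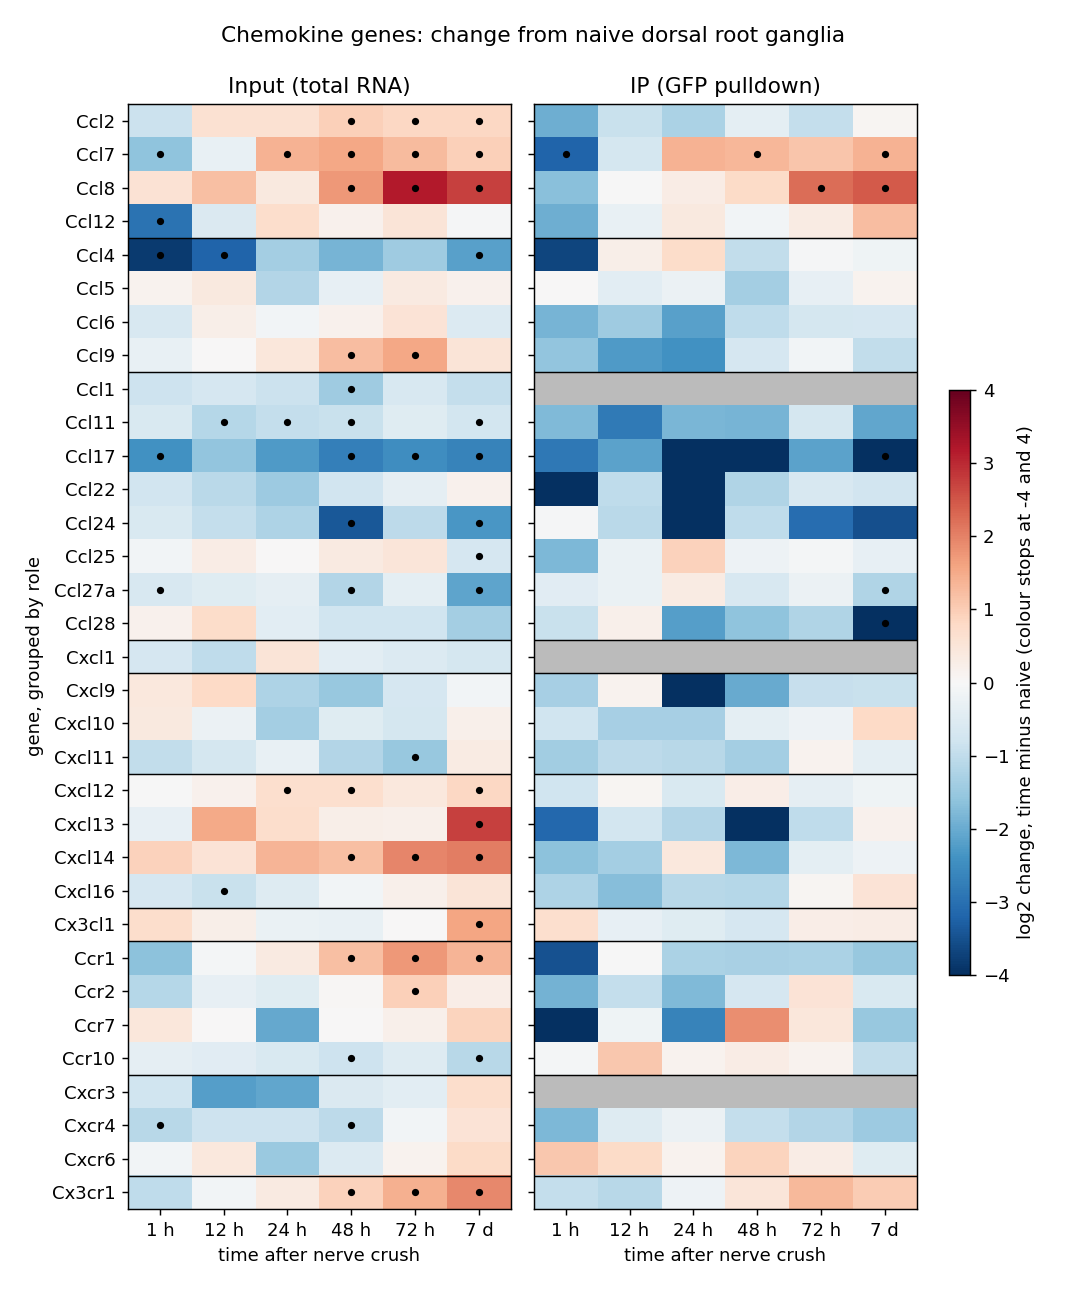
Log2 change from naive for 33 chemokine genes (rows, grouped by role) at 6 times after nerve crush (columns), in Input (left) and IP (right); colour is the log2 change and a dot marks an adjusted p under 0.05. Ccl8 in Input reaches 3.18 at 72 h and Ccl27a falls to -2.11 at 7 d.

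Ccl2, Ccl7, Ccl8 and Ccl12 were grouped as monocyte-attracting ligands, although mouse Ccl8 is known to act through Ccr8. Of these 4, 2 fell at 1 h in Input, 1 rose at 24 h and 3 rose at each of 48 h, 72 h and 7 d. Ccl7, a monocyte attractant of the chromosome 11 cluster, ranged from 6.21 to 18.1 with a median of 7.93 CPM in the 7 naive libraries. At 1 h its 5 libraries held 2.38, 2.42, 2.83, 3.01 and 4.68 CPM, all below the lowest naive library (-1.60 ± 0.29, edgeR adjusted p = 0.0017). At 24 h they held 11.4, 18.4, 26.0, 31.2 and 32.9 CPM, of which 1 lay within the naive range (1.38 ± 0.26, edgeR adjusted p = 0.00013). Ccl7 thus fell at 1 h and rose at 24 h.

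The rise of Ccl7 was still present later, with Input libraries from 22.4 to 32.5 with a median of 25.6 CPM at 48 h (1.54 ± 0.25, edgeR adjusted p = 3.8e-06) and from 18.2 to 29.2 with a median of 21.2 CPM at 72 h (1.25 ± 0.24, edgeR adjusted p = 8.5e-05). Neither range overlapped that of the naive libraries, although the lowest 72 h library was close to naive replicate 5, at 18.1 CPM the highest. At 7 d the 4 libraries were at 11.4, 18.7, 19.8 and 20.8 CPM (0.94 ± 0.27, edgeR adjusted p = 0.0030), and 1 of them again lay within the naive range.

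In IP Ccl7 behaved alike at 1 h: the naive libraries ranged from 2.89 to 10.5 with a median of 6.45 CPM and the 1 h libraries at 0, 0.594, 0.721, 0.813 and 0.940 CPM (-3.20 ± 0.51, edgeR adjusted p = 0.00031), without overlap. At 24 h the 4 IP libraries held 13.1, 13.3, 17.3 and 23.7 CPM, all above the naive ones, and the test did not pass (1.39 ± 0.40, edgeR adjusted p = 0.057). It passed at 48 h (1.32 ± 0.37, edgeR adjusted p = 0.038) and 7 d (1.38 ± 0.40, edgeR adjusted p = 0.012), and at 72 h the value was 1.12 ± 0.36, edgeR adjusted p = 0.090. The 48 h call was lost without any 1 of IP 48 h replicates 1, 3, 5 and 6 or IP naive replicates 1, 2, 5, 6 and 7 (edgeR adjusted p 0.0545 to 0.162). A fit with replicate number as a block also ended this call (edgeR adjusted p 0.0837). That at 7 d was lost without IP 7 d replicate 2 (edgeR adjusted p 0.0747).

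Ccl8, a further ligand of this cluster that in mice is known to act through Ccr8, had the largest rise of the 4 in Input. Naive Input libraries ranged from 0.354 to 20.6 with a median of 10.4 CPM, a wide spread. Those at 48 h ranged from 21.4 to 45.2 with a median of 35.0 CPM (1.74 ± 0.62, edgeR adjusted p = 0.027) and those at 72 h from 46.2 to 128 with a median of 89.7 CPM (3.18 ± 0.62, edgeR adjusted p = 0.00020). The 7 d libraries held 31.8, 42.3, 81.6 and 114 CPM (2.75 ± 0.67, edgeR adjusted p = 0.00077). Every library at 48 h, 72 h and 7 d was above every naive library. The 48 h call was lost without any 1 of Input naive replicates 1 and 7 (edgeR adjusted p 0.05002 to 0.0524). At 1 h and 12 h single libraries reached 52.9 and 72.6 CPM while the medians were 4.84 and 12.3 CPM, and neither time passed.

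In IP Ccl8 rose at 72 h and 7 d. Naive IP libraries ranged from 0 to 20.1 with a median of 4.80 CPM, those at 72 h from 14.05 to 37.1 with a median of 29.5 CPM (2.25 ± 0.56, edgeR adjusted p = 0.014) and those at 7 d held 20.1, 33.8, 34.1 and 46.1 CPM (2.45 ± 0.61, edgeR adjusted p = 0.0034). The 72 h range overlapped the naive one through the highest naive library, at 20.1 CPM, and the 7 d range lay just above it.

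Ccl12, the mouse gene next to Ccl8, fell at 1 h and at no other time. Its naive Input libraries ranged from 7.42 to 27.3 with a median of 15.5 CPM and its 1 h libraries held 0.495, 0.982, 1.45, 1.49 and 5.71 CPM (-2.95 ± 0.44, edgeR adjusted p = 0.00018), without overlap. At 24 h the libraries held 12.9, 18, 19.1, 29.3 and 42.3 CPM (0.70 ± 0.37, edgeR adjusted p = 0.23) and overlapped naive. In IP Ccl12 differed over the 6 times together (edgeR adjusted p = 0.035) and at no single time.

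Ccl2, the monocyte attractant known best from injured nerve, rose at 48 h, 72 h and 7 d. Naive Input libraries ranged from 1.30 to 10.4 with a median of 3.31 CPM, and those at 48 h from 7.22 to 9.72 with a median of 8.76 CPM (0.94 ± 0.31, edgeR adjusted p = 0.015), within the naive range. At 72 h the value was 0.84 ± 0.30, edgeR adjusted p = 0.036 and at 7 d 0.82 ± 0.34, edgeR adjusted p = 0.038. The 72 h call was lost without any 1 of Input 72 h replicates 2, 4 and 7 or Input naive replicates 1, 2, 3, 4 and 7 (edgeR adjusted p 0.0535 to 0.0936) and in a fit of naive and that time alone (adjusted p 0.0874). The 7 d call was lost without any 1 of Input 48 h replicate 3, Input 7 d replicates 1, 2, 3 and 4 or Input naive replicates 1, 2, 3, 4 and 7 (edgeR adjusted p 0.0511 to 0.0833), under RLE scaling (adjusted p 0.0513), in a fit of naive and that time alone (adjusted p 0.110) and in DESeq2 (adjusted p 0.0529). In IP Ccl2 passed at no time.

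Macrophage markers moved over some of these times. The summed level of 18 macrophage genes in Input was 242 to 603 CPM over the naive libraries, 227 to 450.4 at 1 h, 194 to 413 at 12 h, 239 to 325 at 24 h, and at the last 3 times in order 421 to 566, 649.6 to 955 and 574 to 1053, and no gene of the list was at 0 in any group. Of the 18, 6, 4 and 6 fell at 1, 12 and 24 h, and 5, 14 and 11 rose at 48 h, 72 h and 7 d. The mean sum in Input was 0.690 times naive at 1 h, when Ccl7 fell, 0.718 times at 24 h, when Ccl7 rose, and 2.15 times at 72 h. In IP the mean sum was 0.322 times naive at 1 h, 0.540 times at 48 h, when Ccl7 rose there, 1.08 times at 72 h and 1.03 times at 7 d. The part of these cells in the chemokine changes was not tested, and in bulk ganglia fewer cells of a type and less RNA per cell cannot be told apart.

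**Figure D2:**
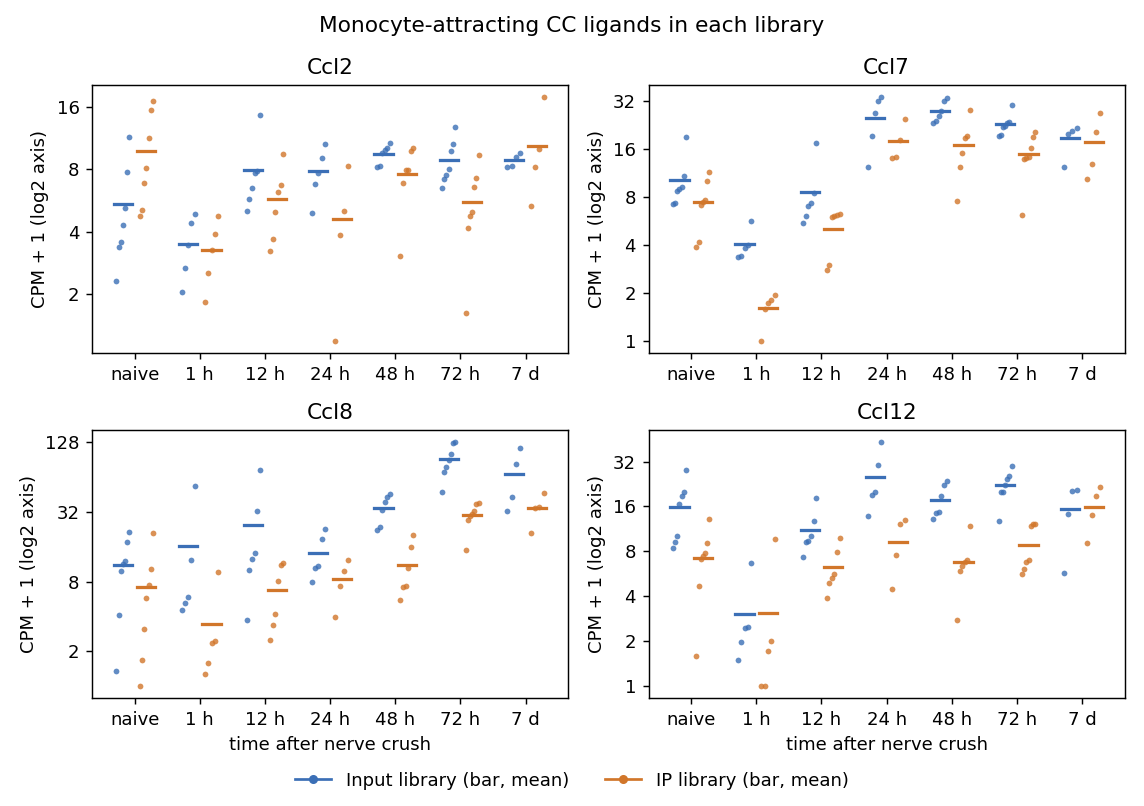
CPM plus 1 (log2 axis) of Ccl2, Ccl7, Ccl8 and Ccl12 in each library by time after nerve crush; points are libraries of Input and IP and short lines mark the group means. Ccl7 and Ccl12 are lowest at 1 h in Input, and Ccl8 is highest at 72 h with a mean of 91.3 CPM.

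Inflammatory CC ligands, Ccl4, Ccl5, Ccl6 and Ccl9, attract myeloid cells and T cells. Ccl9, a mouse ligand of Ccr1, rose at 48 and 72 h. Its naive Input libraries ranged from 1.08 to 9.23 with a median of 3.50 CPM, those at 48 h from 7.43 to 11.3 with a median of 8.80 CPM (1.23 ± 0.31, edgeR adjusted p = 0.0016) and those at 72 h from 8.15 to 16.3 with a median of 11.2 CPM (1.56 ± 0.30, edgeR adjusted p = 9.3e-05). Both ranges overlapped naive through its highest library, at 9.23 CPM. At 7 d Ccl9 did not pass (0.52 ± 0.34, edgeR adjusted p = 0.20) and all its libraries lay within the naive range. In IP it passed at no time.

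Ccl4, an inflammatory ligand made by activated leukocytes, fell in Input at 1 h, 12 h and 7 d. Its naive libraries ranged from 0.0580 to 8.84 with a median of 1.81 CPM, and the 1 h libraries held 0, 0.0467, 0.196, 0.267 and 0.635 CPM (-3.83 ± 0.98, edgeR adjusted p = 0.017). At 12 h they ranged from 0.0649 to 0.818 with a median of 0.354 CPM (-3.19 ± 0.89, edgeR adjusted p = 0.026) and at 7 d they held 0.278, 0.288, 0.345 and 1.83 CPM (-2.18 ± 0.93, edgeR adjusted p = 0.046). All 3 ranges overlapped naive. Ccl4 overlaps Ccl3 in the annotation, and without the strand of the counting their reads cannot be told apart. The 1 h call was lost without any 1 of Input 1 h replicates 1 and 4 (edgeR adjusted p 0.0628 to 0.0766). The 12 h call was lost without any 1 of Input 12 h replicates 1, 2, 4 and 6 or Input naive replicates 5, 6 and 7 (edgeR adjusted p 0.0549 to 0.0806). The 7 d call was lost without any 1 of Input 7 d replicates 1, 3 and 4 or Input naive replicates 5, 6 and 7 (edgeR adjusted p 0.0695 to 0.125), without the filter on low counts (adjusted p 0.0644) and in a fit of naive and that time alone (adjusted p 0.106). With replicate number as a block all 3 calls were lost (edgeR adjusted p 0.0517, 0.127 and 0.336), and the 7 d change was -1.08. The sum of 8 neutrophil markers was 91.1 to 1098 CPM over the naive libraries, 11.7 to 158 at 1 h, 24.3 to 384 at 12 h and 24.2 to 56.1 at 7 d. Of the 8 genes, 4, 0 and 5 fell at these 3 times, and their part was not tested.

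Ccl5, which attracts T cells and monocytes, and Ccl6 passed at no single time in either fraction. Ccl5 Input means lay between 1.11 ± 0.695 CPM at 24 h and 3.38 ± 2.84 CPM at 12 h, against 2.49 ± 2.05 CPM in naive. Those of Ccl6 lay between 5.75 ± 1.44 CPM at 1 h and 13.1 ± 4.22 CPM at 72 h, against 9.06 ± 6.64 CPM in naive. For both genes the SD of the naive libraries was larger than the distance of any of these means from naive. Ccl6 overlaps E230016K23Rik, and their reads cannot be told apart.

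Of 8 CC ligands of other receptors (Ccl1, Ccl11, Ccl17, Ccl22, Ccl24, Ccl25, Ccl27a and Ccl28) none rose in Input at any time, while 2, 1, 1, 5, 1 and 5 fell at the 6 times in order, beside 5.46%, 1.89%, 4.29%, 18.1%, 11.2% and 25.1% of all genes. Ccl27a, known from skin and a ligand of Ccr10, fell at 1 h, 48 h and 7 d. Its naive Input libraries ranged from 45.7 to 94.2 with a median of 77.9 CPM, those at 48 h from 24.0 to 40.7 with a median of 34.6 CPM (-1.16 ± 0.19, edgeR adjusted p = 5.6e-06), and the 4 at 7 d held 12.1, 16.2, 20.9 and 21.0 CPM (-2.11 ± 0.23, edgeR adjusted p = 3.4e-10). At 48 h and 7 d every library was below every naive library, and at 72 h, between them, the libraries ranged from 50.1 to 66.6 with a median of 59.2 CPM and did not pass (-0.38 ± 0.18, edgeR adjusted p = 0.12).

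At 1 h Ccl27a was -0.64 ± 0.20, edgeR adjusted p = 0.034. This call was lost without any 1 of Input 1 h replicates 1, 2 and 4 or Input naive replicates 2, 5, 6 and 7 (edgeR adjusted p 0.0538 to 0.156) and in a fit of naive and that time alone (adjusted p 0.107). In IP its naive libraries ranged from 29.8 to 58.0 with a median of 42.0 CPM and the 7 d libraries held 8.6, 17.9, 21.6 and 23 CPM (-1.21 ± 0.26, edgeR adjusted p = 0.00053), again without overlap. Ccl27a overlaps Il11ra1, an interleukin-11 receptor gene, in the annotation, and without the strand of the counting their reads cannot be told apart. Il11ra1 fell at the same times in Input, 1 h (-0.60 ± 0.17, edgeR adjusted p = 0.023), 48 h (-0.46 ± 0.16, edgeR adjusted p = 0.020) and 7 d (-0.67 ± 0.18, edgeR adjusted p = 0.0017), and at 7 d in IP (-1.26 ± 0.27, edgeR adjusted p = 0.00058).

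Ccl17, which attracts T cells through Ccr4, fell at 1 h, 48 h, 72 h and 7 d in Input. Its naive libraries ranged from 0.515 to 9.03 with a median of 2.95 CPM and those at 48 h from 0.245 to 1.06 with a median of 0.562 CPM (-2.75 ± 0.76, edgeR adjusted p = 0.0041). At 72 h the change was -2.48 ± 0.71, edgeR adjusted p = 0.0083 and at 7 d, with libraries at 0, 0.384, 1.03 and 1.03 CPM, it was -2.69 ± 0.88, edgeR adjusted p = 0.0091. Ranges overlapped at each of these times, mostly through the lowest naive library, at 0.515 CPM. The 1 h call (-2.43 ± 0.80, edgeR adjusted p = 0.044) was lost without any 1 of Input 1 h replicates 1, 2, 3 and 4 or Input naive replicates 2, 4, 5 and 7 (edgeR adjusted p 0.0574 to 0.149), without the filter on low counts (adjusted p 0.0610), with a covariate for Xist over Ddx3y (adjusted p 0.0878) and in a fit of naive and that time alone (adjusted p 0.0746).

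In IP Ccl17 had no count in any of the 4 libraries at 7 d, while naive libraries ranged from 0 to 9.02 with a median of 1.33 CPM. With a floor of 3 counts per library, 0.162 CPM on average, this was at least 13.5-fold lower than the naive mean of 2.18 CPM (edgeR adjusted p = 0.0039). Of the naive IP libraries 1 was at 0 too, so the ranges touched.

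Ccl11 and Ccl24, the eotaxins, attract eosinophils through Ccr3. Ccl11 naive Input libraries ranged from 8.6 to 25.6 with a median of 10.3 CPM, and it fell at 12 h (from 5.17 to 10.2 with a median of 6.42 CPM, -1.13 ± 0.22, edgeR adjusted p = 0.00095), 24 h (-0.96 ± 0.23, edgeR adjusted p = 0.0036), 48 h (-0.89 ± 0.22, edgeR adjusted p = 0.0012) and 7 d (-0.75 ± 0.25, edgeR adjusted p = 0.0097). Libraries at these times lay around the lowest naive value of 8.6 CPM, with overlap. The 12 h call was lost in a fit of naive and that time alone (adjusted p 0.0583). Fibroblast markers, 7 genes with a summed level of 589 to 1316 CPM in naive Input, were at 354 to 733 CPM at 12 h and 375 to 614 CPM at 48 h, with 6 of 7 fallen at 1, 12, 24 and 48 h, none at 72 h and 2 at 7 d. Their part was not tested. In IP the 12 h and 7 d libraries of Ccl11 lay below all naive libraries without passing (-2.82 ± 0.85, edgeR adjusted p = 0.073 and -2.09 ± 0.94, edgeR adjusted p = 0.10).

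Ccl24 fell at 48 h and 7 d. Its naive Input libraries ranged from 0.406 to 2.91 with a median of 0.719 CPM, those at 48 h from 0 to 0.280 with a median of 0.0840 CPM (-3.39 ± 0.63, edgeR adjusted p = 4.4e-05), and the 7 d libraries held 0.159, 0.188, 0.336 and 0.345 CPM (-2.33 ± 0.66, edgeR adjusted p = 0.0027). Neither range overlapped naive, at levels that rest on 12 counts in all at 48 h. Ccl25, known as the thymus and gut ligand of Ccr9, fell at 7 d (3.67, 3.79, 4.49 and 5.09 CPM against naive from 4.01 to 14.4 with a median of 5.65 CPM, -0.67 ± 0.26, edgeR adjusted p = 0.025). That call was lost without any 1 of Input 7 d replicates 2 and 4 or Input naive replicate 6 (edgeR adjusted p 0.0713 to 0.153) and in a fit of naive and that time alone (adjusted p 0.0740). With replicate number as a block it was lost too (edgeR adjusted p 0.0846).

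Ccl1, a ligand of Ccr8, fell at 48 h (-1.41 ± 0.47, edgeR adjusted p = 0.017), from a naive mean of 1.27 ± 0.705 CPM to 0.475 ± 0.297 CPM. The call was lost in a fit of naive and that time alone (adjusted p 0.0548). Ccl22, the other ligand of Ccr4, and Ccl28, a mucosal ligand of Ccr10, passed at no time in Input, with means of 0.399 to 1.21 CPM and 0.260 to 1.13 CPM over the 7 groups. In IP Ccl28 fell at 7 d: naive libraries ranged from 0 to 10.3 with a median of 2.91 CPM and those at 7 d held 0, 0, 0.0616 and 0.166 CPM, 5 counts in all (-5.72 ± 1.45, edgeR adjusted p = 0.0038). The lowest naive library was also at 0, so the ranges overlapped.

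Neutrophil-attracting CXC ligands were near the limit of the count data. Cxcl1 passed at no time in Input, where group means ran from 0.336 ± 0.225 CPM at 12 h to 0.997 ± 0.794 CPM at 24 h, and it was too low to be tested in IP. Cxcl2, Cxcl3 and Cxcl5 were below the limit of 0.5 CPM.

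None of the interferon-induced ligands of Cxcr3 passed as higher at any time. Cxcl10 Input means lay between 3.87 ± 1.75 CPM at 24 h and 12.9 ± 13.5 CPM at 1 h, against 9.77 ± 4.16 CPM in naive, and at 1 h one library of 36.9 CPM stood beside 4 of 4.4 to 8.90 CPM. Cxcl9 had a similar single library at 12 h, of 28.7 CPM beside a median of 2.35 CPM. Cxcl11, annotated as a transcribed pseudogene in this build, fell at 72 h in Input (from 0.207 to 1.23 with a median of 0.317 CPM against naive from 0.174 to 3.42 with a median of 0.903 CPM, -1.51 ± 0.54, edgeR adjusted p = 0.036). That call was lost without any 1 of Input 72 h replicates 2, 3, 4, 6 and 7 or Input naive replicates 5 and 7 (edgeR adjusted p 0.0561 to 0.148) and under edgeR's newer quasi-likelihood method (adjusted p 0.0574). With replicate number as a block it was lost too (edgeR adjusted p 0.109). Cxcl10 and Cxcl11 overlap Art3, an ADP-ribosyltransferase gene, which rose at 7 d (1.27 ± 0.17, edgeR adjusted p = 3.0e-08) when neither of them did.

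Of the other CXC ligands, Cxcl12, Cxcl13 and Cxcl14 rose in Input and Cxcl16 fell once. Cxcl12, the ligand of Cxcr4 that retains haematopoietic and immune cells in tissue, ranged from 12.1 to 33.5 with a median of 18.7 CPM in naive libraries. It held 26.6, 26.6, 30.9, 32.3 and 35.9 CPM at 24 h (0.68 ± 0.18, edgeR adjusted p = 0.0092) and 30.2, 34.2, 34.9 and 36.8 CPM at 7 d (0.84 ± 0.19, edgeR adjusted p = 0.00027). The 48 h value was 0.66 ± 0.17, edgeR adjusted p = 0.0028. At these 3 times the ranges overlapped naive only through its highest library, at 33.5 CPM, the next being at 19.5 CPM. The 24 h call was lost in a fit of naive and that time alone (adjusted p 0.0532).

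Cxcl13, the B cell attractant, rose at 7 d: its 4 libraries held 2.16, 3.41, 6.21 and 7.47 CPM, all above the naive libraries, which ranged from 0 to 1.51 with a median of 1.17 CPM (2.73 ± 0.67, edgeR adjusted p = 0.00061). T and B cell markers, 11 genes, summed to 4.79 to 22.4 CPM in naive Input and 5.88 to 15.3 CPM at 7 d, where 1 rose and 2 fell. Cxcl14, whose receptor is not settled, rose at 48 h (1.20 ± 0.46, edgeR adjusted p = 0.037), 72 h and 7 d. Its naive libraries ranged from 0.103 to 0.988 with a median of 0.538 CPM, those at 72 h from 1.55 to 3.05 with a median of 1.70 CPM (1.96 ± 0.45, edgeR adjusted p = 0.00084) and those at 7 d held 1.43, 1.5, 2.88 and 3.06 CPM (2.04 ± 0.49, edgeR adjusted p = 0.00046), both without overlap. Its 48 h call was lost without any 1 of Input 48 h replicates 1, 4 and 6 or Input naive replicates 4, 6 and 7 (edgeR adjusted p 0.0531 to 0.0979) and in a fit of naive and that time alone (adjusted p 0.0540).

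Cxcl16, a membrane-bound ligand of Cxcr6, fell at 12 h in Input (from 7.08 to 19.9 with a median of 7.76 CPM against naive from 5.80 to 24.0 with a median of 21.1 CPM, -0.89 ± 0.23, edgeR adjusted p = 0.017). The ranges overlapped, since 1 naive library was at 5.80 CPM. That call was lost without any 1 of Input 12 h replicates 1 and 4 (edgeR adjusted p 0.0515 to 0.0561), with a covariate for Xist over Ddx3y (adjusted p 0.105) and in a fit of naive and that time alone (adjusted p 0.163). In IP Cxcl16 differed over all times together (edgeR adjusted p = 0.0076) and at no single time. It overlaps Zmynd15, which did not pass at 12 h (-0.48 ± 0.29, edgeR adjusted p = 0.37).

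Cx3cl1, fractalkine, is a membrane-tethered ligand made by neurons and endothelium. In Input it rose at 7 d, where the 4 libraries held 10.3, 10.3, 10.4 and 11.9 CPM (1.57 ± 0.26, edgeR adjusted p = 2.6e-06), above all naive libraries, which ranged from 2.04 to 5.19 with a median of 3.77 CPM. From 12 to 72 h the means lay between 2.93 ± 0.737 and 4.25 ± 1.03 CPM and did not pass. At 1 h, 4 of 5 libraries were at 6.15 to 7.24 CPM and 1 at 2.99 CPM, and the test did not pass (0.70 ± 0.25, edgeR adjusted p = 0.066). In IP at 7 d 1 library held 16.8 CPM and the other 3 held 0, 0.123 and 1.16 CPM, and the test did not pass (0.31 ± 1.01, edgeR adjusted p = 0.86).

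**Figure D3:**
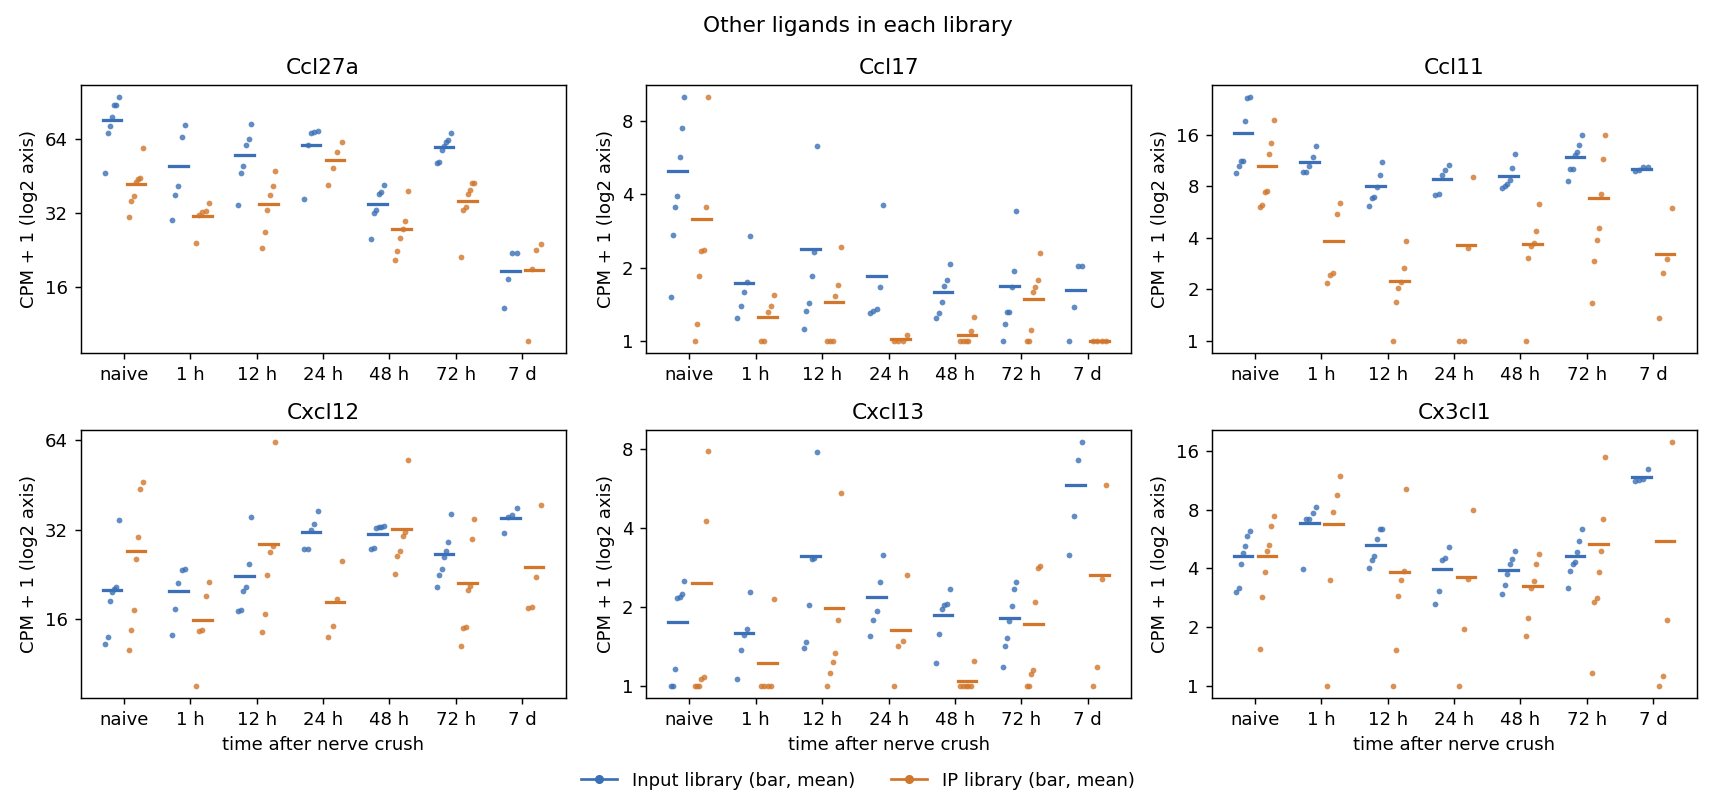
CPM plus 1 (log2 axis) in each library by time after nerve crush for Ccl27a, Ccl17, Ccl11, Cxcl12, Cxcl13 and Cx3cl1, with short lines at the means of Input and IP. Ccl27a falls to 17.5 CPM in Input at 7 d, while Cx3cl1 rises to 10.7 CPM there.

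Receptors that rose did so at 48 h or later, and Cxcr4 fell at 1 h. Cx3cr1, the fractalkine receptor of macrophages, ranged from 1.06 to 16.2 with a median of 3.28 CPM in naive Input libraries. It rose at 48 h (0.91 ± 0.35, edgeR adjusted p = 0.038), at 72 h with libraries from 9.39 to 19.4 with a median of 13.1 CPM (1.43 ± 0.34, edgeR adjusted p = 0.0014) and at 7 d with 17.1, 19.0, 19.7 and 20.4 CPM (1.91 ± 0.37, edgeR adjusted p = 4.1e-05). At 7 d all libraries were above the highest naive one, at 16.2 CPM. The 48 h call was lost without any 1 of Input 48 h replicates 3 and 5 or Input naive replicates 1, 3, 4, 5, 6 and 7 (edgeR adjusted p 0.0567 to 0.0879) and in a fit of naive and that time alone (adjusted p 0.0869). In IP the test over all times passed (edgeR adjusted p = 0.0054), with group means from 2.07 CPM at 12 h to 10.9 CPM at 72 h, and no single time did.

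Ccr1, a receptor of myeloid cells for Ccl5, Ccl6 and Ccl9, rose at 48 h (1.19 ± 0.46, edgeR adjusted p = 0.040), at 72 h with libraries from 0.825 to 3.79 with a median of 2.60 CPM (1.73 ± 0.45, edgeR adjusted p = 0.0034) and at 7 d with 1.65, 1.79, 1.94 and 2.59 CPM (1.36 ± 0.50, edgeR adjusted p = 0.020). Naive libraries ranged from 0.236 to 1.61 with a median of 0.719 CPM, so only the 7 d range lay clear of them. The 48 h call was lost without any 1 of Input 48 h replicates 3, 4 and 6 or Input naive replicates 1, 3, 5, 6 and 7 (edgeR adjusted p 0.0519 to 0.0807) and with a covariate for Xist over Ddx3y (adjusted p 0.0670). With replicate number as a block it was lost too (edgeR adjusted p 0.0720). The 7 d call was lost without Input 7 d replicate 4 (edgeR adjusted p 0.0633).

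Ccr2, the monocyte receptor for Ccl2, Ccl7 and Ccl12, rose in Input at 72 h alone, with libraries from 7.48 to 17.7 with a median of 10.6 CPM, while naive libraries ranged from 2.78 to 10.2 with a median of 5.96 CPM (0.97 ± 0.36, edgeR adjusted p = 0.045). These ranges overlapped. The call was lost without any 1 of Input 48 h replicate 3, Input 72 h replicates 1, 2, 4 and 6 or Input naive replicates 1, 3, 4, 5 and 6 (edgeR adjusted p 0.0511 to 0.104), under RLE scaling (adjusted p 0.0502), without the filter on low counts (adjusted p 0.0597) and with a covariate for Xist over Ddx3y (adjusted p 0.0544). Monocyte markers, 6 genes, summed to 10.4 to 59.9 CPM in naive Input and 44.5 to 112 CPM at 72 h, where 1 of them rose, and their part was not tested. In IP Ccr2 differed over all times (edgeR adjusted p = 0.0020) and at no single time.

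Cxcr4, the receptor for Cxcl12, fell at 1 h (0.701, 0.792, 1.28, 1.31 and 1.75 CPM against naive from 0.986 to 4.31 with a median of 2.71 CPM, -1.11 ± 0.36, edgeR adjusted p = 0.040) and at 48 h (from 0.915 to 1.68 with a median of 1.09 CPM, -1.05 ± 0.33, edgeR adjusted p = 0.012), with overlap both times. The 1 h call was lost without any 1 of Input 1 h replicates 1, 2 and 4 or Input naive replicates 2, 5, 6 and 7 (edgeR adjusted p 0.0668 to 0.143), without the filter on low counts (adjusted p 0.0584) and in a fit of naive and that time alone (adjusted p 0.149). Ccr10, the receptor for Ccl27a and Ccl28, fell at 48 h (-0.84 ± 0.29, edgeR adjusted p = 0.021) and 7 d (1.11, 1.21, 1.49 and 2.49 CPM against naive from 2.06 to 4.21 with a median of 3.40 CPM, -1.10 ± 0.33, edgeR adjusted p = 0.0049). Its 48 h call was lost without any 1 of Input 48 h replicates 2 and 6 (edgeR adjusted p 0.0502 to 0.0616). It overlaps Cntnap1, a gene of axon and myelin contacts, which fell at the same times (-1.49 ± 0.24, edgeR adjusted p = 4.8e-06 and -1.20 ± 0.27, edgeR adjusted p = 0.00027) and at 72 h (-0.80 ± 0.22, edgeR adjusted p = 0.0068), and their reads cannot be told apart. Ccr7, Cxcr3 and Cxcr6, receptors of T cells and dendritic cells, passed at no single time, with Input means of 0.0965 to 0.889, 0.206 to 1.52 and 0.217 to 1.07 CPM over the 7 groups. Cxcr6 overlaps Fyco1 in the annotation.

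**Figure D4:**
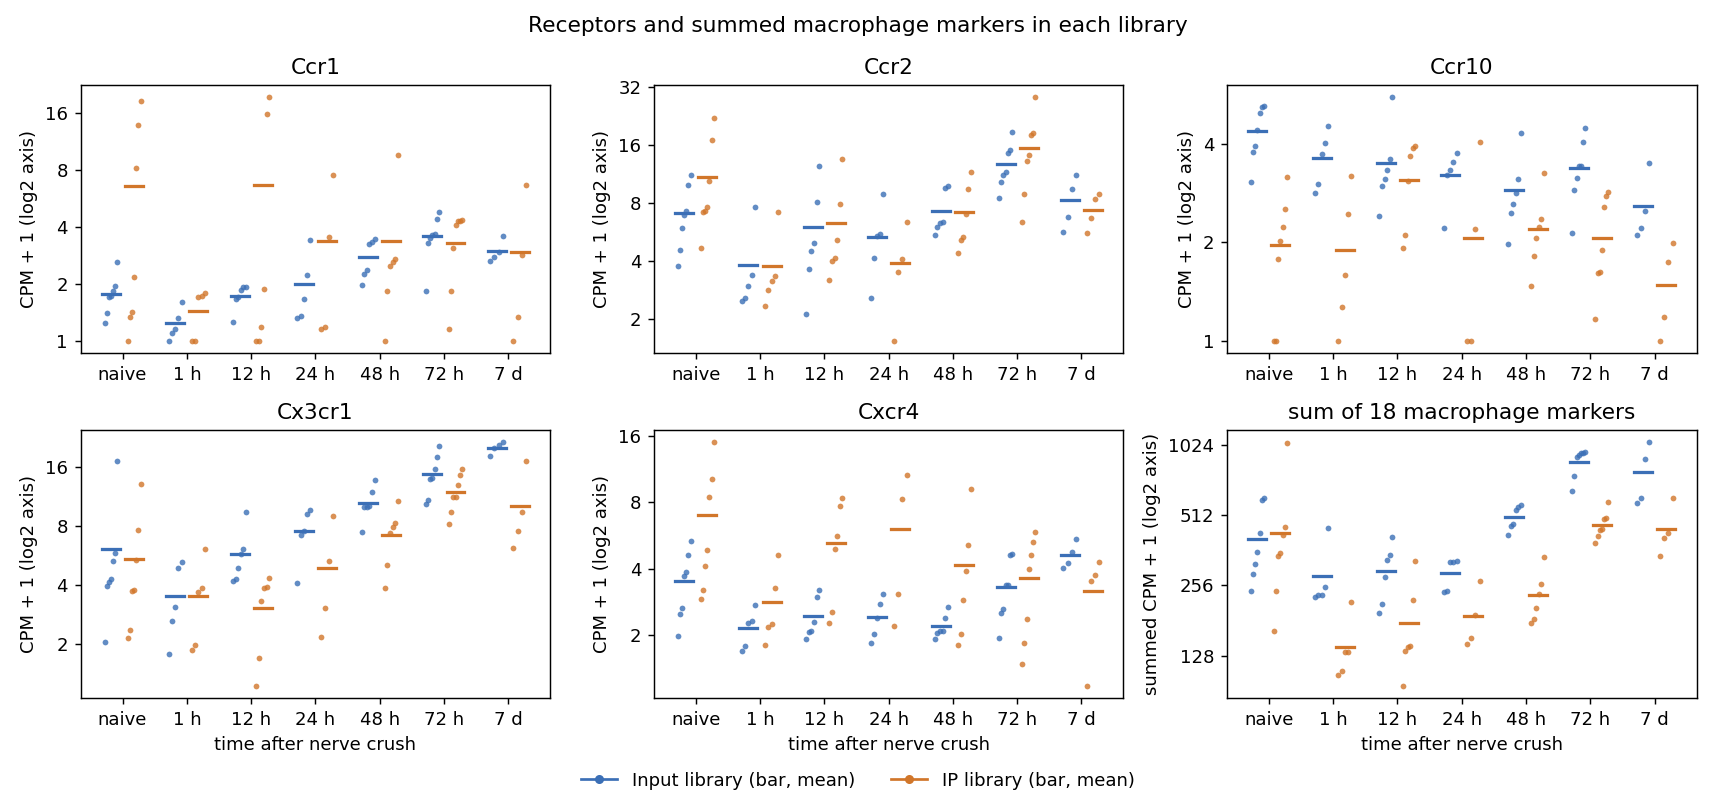
CPM plus 1 (log2 axis) of Ccr1, Ccr2, Ccr10, Cx3cr1 and Cxcr4 in each library by time after nerve crush, with short lines at the means of Input and IP, beside the summed CPM of the macrophage markers. Cx3cr1 in Input rises from a mean of 5.11 CPM in naive to 19.1 CPM at 7 d.

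Ligands and their receptors, set side by side by textbook pairing, did not all move together in Input. At 7 d Cx3cl1 and Cx3cr1 both rose, Ccl27a and Ccr10 both fell, and Cxcl12 rose while Cxcr4 did not pass (0.53 ± 0.35, edgeR adjusted p = 0.20). At 48 h Cxcl12 rose and Cxcr4 fell. At 48 h and 72 h Ccl9 and Ccr1 both rose, and at 72 h Ccl2, Ccl7 and Ccr2. Cxcl13 rose at 7 d, when Cxcr5, below the reporting limit, fell (mean 0.601 CPM in naive and 0.0791 CPM at 7 d, -2.80 ± 0.90, edgeR adjusted p = 0.0079). Cxcr5, with 219 counts over all Input libraries, overlaps Bcl9l in the annotation, and their reads cannot be told apart. Ccl27a and Ccr10 overlap Il11ra1 and Cntnap1, which fell at 7 d too, and those reads cannot be told apart. The calls of Ccl2 and Ccr2 at 72 h and of Ccr1 at 48 h were lost without some 1 library. All these pairs share the same libraries, and no test of joint change was made.

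Between naive and injured IP libraries fewer genes passed. At 1 h 1 chemokine gene of the 31 tested fell (Ccl7) and none rose, beside 0.541% of 18656 genes higher and 0.654% lower. None passed at 12 h (0.89% and 0.783% of all genes) or 24 h (1.44% and 0.445%). At an unadjusted p under 0.05 the counts there were 5 and 10, and the share of all genes at that threshold was not counted. DESeq2 called 2 and 6, beside 746 of 12969 genes at 12 h and 738 of 19285 at 24 h. At 48 h 1 rose (1.8% and 0.734%), at 72 h 1 rose (1.7% and 0.858%), and at 7 d 2 rose and 3 fell (10.3% and 10.5%). Over all times together 9 of 31 differed from naive, beside 22.1% of all genes, and these were Ccl7, Ccl8, Ccl12, Ccl17, Ccl27a, Ccl28, Cxcl16, Ccr2 and Cx3cr1.

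The median log2 change of the 31 genes in IP was -1.67 at 1 h (-1.63 with Ccr7, which had no count then, at its bound) and, at the later times in order, -0.69, -1.11, -0.76, -0.20 and -0.48. The median of all genes lay between -0.20 and 0.04. At 1 h 28 of 31 were below naive, of which 1 passed, and 2 had no overlap with naive libraries (Ccl7 and Ccl2). How many of all genes had no overlap was not counted. The macrophage marker sum in IP was 162 to 1041 CPM over naive libraries and 105 to 216 CPM at 1 h, with 7 of 18 genes fallen. Other lists were lower in the same libraries too: mean sums were 0.112 times naive for neutrophil, 0.381 for monocyte, 0.396 for fibroblast, 0.419 for T and B cell and 0.526 for Schwann cell and myelin markers. Mural, satellite glia and endothelial markers were at 0.775, 0.789 and 0.870 times naive, and neuron markers at 1.39 times. Few genes passed as fallen: 1 of 8 neutrophil, 0 of 6 monocyte, 3 of 7 fibroblast, 0 of 11 T and B cell and 2 of 8 Schwann cell and myelin genes. The neutrophil sum ranged from 71.7 to 1438 CPM over naive IP libraries, with a median of 149 CPM. The part of these lists was not tested. At 1, 12 and 48 h 2 IP libraries each were mostly ribosomal RNA. Without all such libraries 2 chemokine genes passed at 1 h.

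Below the reporting limit, genes that passed in IP against naive were Ccr4, Ccr9 and Ccr6. Ccr4, the receptor for Ccl17 and Ccl22, fell at 7 d (2.32 to 0.0519 CPM, 5 counts in all, -5.06 ± 1.87, edgeR adjusted p = 0.046). Ccr9, the receptor for Ccl25, fell at 7 d too (5.53 to 0.209 CPM, -4.66 ± 1.58, edgeR adjusted p = 0.030) and over all times (edgeR adjusted p = 0.039), and Ccr6 passed over all times only (edgeR adjusted p = 0.023). In Input Ccl3, Cxcl2 and Cxcr5 fell at 48 h, from naive means of 1.06, 0.815 and 0.601 CPM to 0.2, 0.115 and 0.144 CPM.

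IP and Input were compared in 1 fit of all 14 groups, whose joint scaling moves the CPM of a library slightly. In naive ganglia 5 of 34 genes were higher in IP and 3 lower, beside 28.3% and 18.3% of 19584 genes. Ccl28 (0.664 ± 0.711 CPM in Input and 3.94 ± 4.10 CPM in IP, 2.56 ± 0.84, edgeR adjusted p = 0.0091) and Ccr1 (0.737 ± 0.418 CPM in Input and 5.76 ± 7.16 CPM in IP, 2.95 ± 0.90, edgeR adjusted p = 0.0056) were higher in IP with wide spread. Cxcr4 (2.39 ± 1.14 CPM in Input and 6.16 ± 4.43 CPM in IP, 1.36 ± 0.49, edgeR adjusted p = 0.019) and Ccl2 (4.18 ± 2.98 CPM in Input and 9.15 ± 4.94 CPM in IP, 1.12 ± 0.40, edgeR adjusted p = 0.019) were also higher, and so was Cxcl14 (1.94 ± 0.78, edgeR adjusted p = 0.035). Lower in IP were Ccl27a (71.8 ± 15.4 CPM in Input and 43.4 ± 11.1 CPM in IP, -0.72 ± 0.20, edgeR adjusted p = 0.0020), Ccl12 (-1.07 ± 0.41, edgeR adjusted p = 0.027) and Ccr10 (-1.57 ± 0.60, edgeR adjusted p = 0.026). The 2 fractions overlapped for all 34 genes.

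In that comparison the call of Cxcl14 was lost without any 1 of Input naive replicates 3, 4, 6 and 7 or IP naive replicates 1 and 6 (edgeR adjusted p 0.0551 to 0.2). That of Ccl2 was lost without any 1 of Input naive replicate 7 or IP naive replicates 4 and 7 (edgeR adjusted p 0.0508 to 0.0646). That of Ccl12 was lost without any 1 of Input naive replicate 5 or IP naive replicates 4 and 6 (edgeR adjusted p 0.0603 to 0.0791). That of Ccr10 was lost without any 1 of IP naive replicates 1 and 6 (edgeR adjusted p 0.0571 to 0.0594). That of Cxcr4 was lost without IP naive replicate 6 (edgeR adjusted p 0.0927). A fit with time and replicate number as a block ended the calls of Ccr1 (1.60, edgeR adjusted p 0.304), Cxcl14 (1.36, edgeR adjusted p 0.289) and Cxcr4 (1.21, edgeR adjusted p 0.0755).

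Averaged over the 7 groups, 3 genes were higher in IP and 18 lower, beside 40.3% and 30% of all genes. The median log2 difference of the 34 genes was -0.44 where that of all genes was 0.23, and in naive libraries -0.04 where that of all genes was 0.26. The 34 genes were kept by their Input level, while the other genes met no such limit. This favours lower values in IP among the 34. These medians and the counts beside all genes, here and in naive ganglia, are therefore not read as a trait of them. Higher in IP were Cxcr4 (0.98 ± 0.21, edgeR adjusted p = 3.6e-05), Ccr1 (1.30 ± 0.38, edgeR adjusted p = 0.0016) and Ccl28 (1.33 ± 0.37, edgeR adjusted p = 0.00091). In a fit with time and replicate number as a block Ccr1 did not pass (0.42, edgeR adjusted p = 0.482). Lower were 5 of the 6 genes of the chromosome 11 cluster, Ccl7 (-0.62 ± 0.13, edgeR adjusted p = 2.4e-05), Ccl8 (-1.38 ± 0.26, edgeR adjusted p = 3.4e-06), Ccl11 (-1.43 ± 0.21, edgeR adjusted p = 9.1e-09) and Ccl12 (-0.86 ± 0.18, edgeR adjusted p = 2.5e-05) and Ccl1. The other, Ccl2, did not pass (-0.04 ± 0.17, edgeR adjusted p = 0.89) and was higher in IP in naive ganglia. Further lower genes were Ccl6, Ccl9, Ccl17, Ccl25, Ccl27a, Cxcl1, Cxcl10, Cxcl13, Cxcl16, Ccr7, Ccr10, Cxcr3 and Cx3cr1, with log2 differences from -2.32 (Ccl17) to -0.33 (Ccl27a). Under RLE scaling Cx3cr1 (-0.35, adjusted p 0.0725) and Cxcl16 (-0.32, adjusted p 0.0653) no longer passed. Of 18 macrophage markers 3 were higher and 9 lower in IP over the same average, which was not tested as a source.

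The response to injury over the 6 times together differed between fractions for 1 gene, Ccl25 (edgeR adjusted p = 0.0278 for the 6 interaction terms), beside 8.28% of all genes. Relative to Input, its IP response was -1.67 ± 0.55 at 1 h and 0.91 ± 0.52 at 24 h on the log2 scale, and no single term passed (adjusted p 0.25 and 0.63). IP libraries of Ccl25 held 0.271, 0.721, 1.18, 1.91 and 2.26 CPM at 1 h and 4.94, 6.70, 10.7 and 11.8 CPM at 24 h, around naive values of 2.13 to 6.81 with a median of 5.04 CPM. Input libraries held 4.26, 5.61, 6.75, 6.93 and 8.05 CPM at 1 h and 5.96, 6.23, 6.79, 6.87 and 8.63 CPM at 24 h, all within the naive Input range. IP 1 h replicates 2 and 3 had 66.0% and 74.6% of their counts on Rn45s and Lars2. With time and replicate number as a block no chemokine gene passed the test of the 6 terms. That test was not refitted without single libraries. At single times the difference between fractions passed for 4 other genes, all at 7 d, when 7.28% of all genes had a higher and 5.17% a lower response in IP. At 1, 12, 24, 48 and 72 h, when no chemokine gene passed, 0.0102%, 0%, 0%, 0.00511% and 0% of all genes had a higher and 0%, 0.0153%, 0.0102%, 0.0153% and 0% a lower one. These single terms were not run under the alternatives, and for none of the 4 did the 6 terms together pass. Ccl27a had the higher response in IP (0.99 ± 0.33 on the log2 scale, edgeR adjusted p = 0.0331), where its mean was 41.0 ± 8.99 CPM in naive and 17.8 ± 6.47 CPM at 7 d, against 75.8 ± 16.4 and 17.5 ± 4.26 CPM in Input. Ccl17 (edgeR adjusted p = 0.0310), Cxcl1 (edgeR adjusted p = 0.0360) and Ccl28 (edgeR adjusted p = 0.0395) had the lower response in IP, where the 4 libraries at 7 d held 0, 0 and 5 counts of them in all. For the remaining chemokine genes neither test passed.

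**Figure D5:**
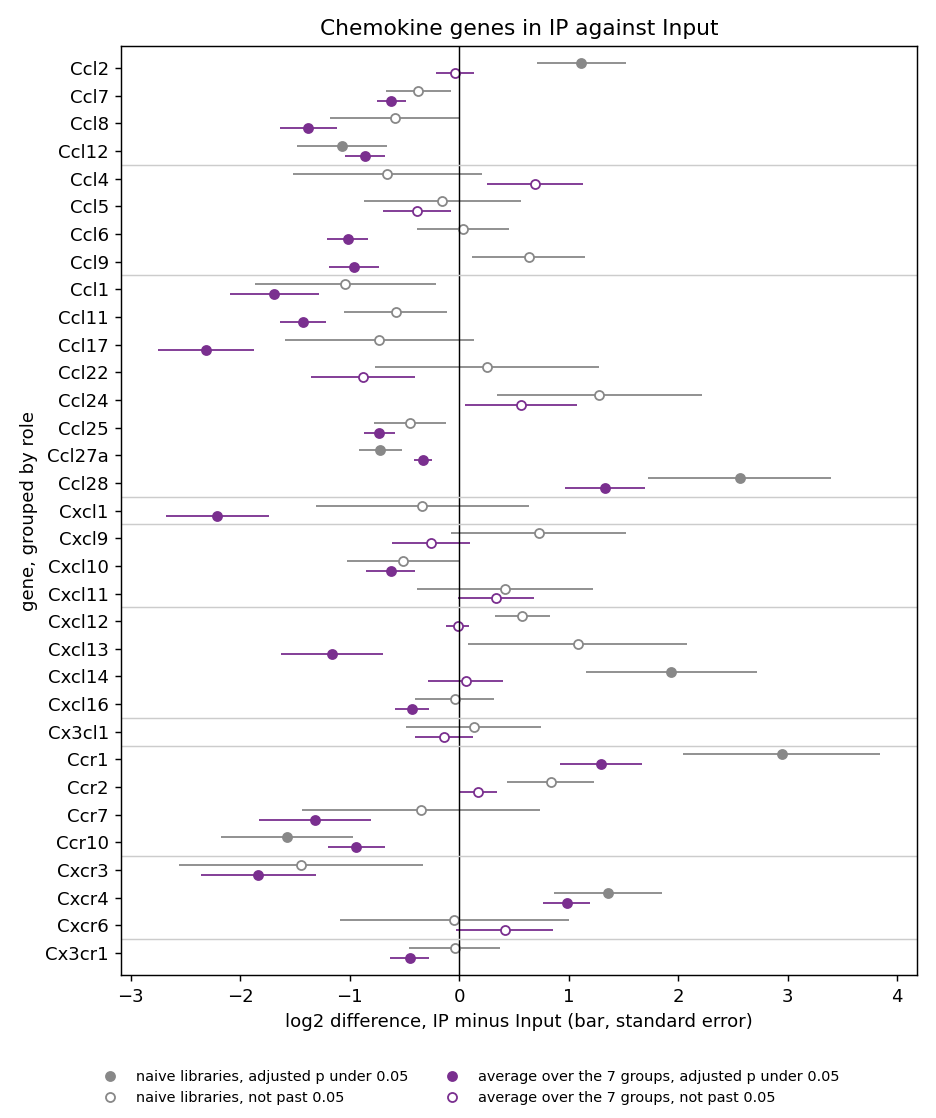
Log2 difference, IP minus Input, for 33 chemokine genes (rows, grouped by role) in naive ganglia and averaged over the 7 groups; bars are standard errors, filled points have an adjusted p under 0.05. Ccl17 has the lowest averaged value, -2.32, and Ccr1 the highest naive value, 2.95.

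Of the genes below the limit, Ccr4, Ccr8, Ccr9, Cxcl5, Cxcl17 and Xcr1 were higher in IP than in Input of naive ganglia, by log2 differences of 5.22 ± 1.42, 4.01 ± 1.63, 4.14 ± 1.14, 4.28 ± 1.38, 3.42 ± 1.10 and 3.32 ± 1.17. Their naive Input counts summed to 4, 4, 23, 13, 16 and 17 over 7 libraries, so these folds rest on few reads. Genes of this set were picked for an Input mean under 0.5 CPM. Of them Ccr4, Ccr8, Cxcl5 and Cxcl17 had enough counts for a test in IP and not in Input. A higher value in IP is thus in part built in by the choice. Averaged over the 7 groups Ccr6, Cxcl2 and Cxcr5 were also higher and Ccl3 lower, while Ccr8 did not pass.

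Other genes of chemokine biology were followed in 4 lists. Of 8 atypical receptors and other chemokine genes, 6 were tested in Input, and 3 passed. Ackr3, the scavenging receptor for Cxcl12, fell from 1 h to 72 h, at 24 h from 6.58 ± 1.84 to 3.01 ± 0.627 CPM (-1.12 ± 0.25 on the log2 scale, edgeR adjusted p = 0.0013). Pf4, a platelet and macrophage chemokine, fell in Input from 36.4 ± 12.3 CPM in naive to 18.4 ± 7.02 CPM at 1 h (-0.98 ± 0.26 on the log2 scale, edgeR adjusted p = 0.020) and 19.9 ± 8.06 CPM at 12 h (-0.88 ± 0.25 on the log2 scale, edgeR adjusted p = 0.030). It rose at 72 h to 86.5 ± 21.0 CPM (1.25 ± 0.23 on the log2 scale, edgeR adjusted p = 7.3e-05) and fell at 7 d to 15.1 ± 2.51 CPM (-1.27 ± 0.29 on the log2 scale, edgeR adjusted p = 0.00028). Ppbp, another platelet chemokine, fell at 1 h and 7 d. In IP Pf4 fell at 1 h from 19.9 ± 8.24 to 3.41 ± 3.43 CPM (-2.32 ± 0.50 on the log2 scale, edgeR adjusted p = 0.0084).

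Of 20 genes of receptor signalling, 9 rose and 4 fell at 72 h and 8 rose and 2 fell at 7 d in Input, where 12.2% of all genes were higher and 11.2% lower at 72 h and 28.3% and 25.1% at 7 d. Of the genes of smallest adjusted p, Arrb1, an arrestin, rose from 24 h to 7 d, at 72 h from 129.9 ± 9.32 to 246 ± 23.4 CPM (0.92 ± 0.08 on the log2 scale, edgeR adjusted p = 1.4e-12). The G protein subunits Gnai2 and Gnai3 rose by 0.34 ± 0.08 (edgeR adjusted p = 0.0012) and 0.59 ± 0.11 (edgeR adjusted p = 7.6e-05) at 72 h. Gnai1, a further subunit, fell then (-0.57 ± 0.10, edgeR adjusted p = 4.0e-05), as did Adrbk1, Adrbk2 and Plcb3. In IP 4 rose and 1 fell at 7 d (10.3% and 10.5% of all genes), with the receptor kinase Grk6 going from 16.5 ± 6.57 to 89.0 ± 13.8 CPM (2.42 ± 0.29 on the log2 scale, edgeR adjusted p = 1.6e-08). Of 7 proteases that cut or shed chemokines, Adam10, which sheds Cx3cl1 and Cxcl16, rose in Input at 7 d from 33.6 ± 9.86 to 80.1 ± 15.6 CPM (1.25 ± 0.17 on the log2 scale, edgeR adjusted p = 3.9e-08), Mmp14 rose at 7 d and Mmp2 fell at 1, 12 and 24 h. Adam17 also fell at 1 and 48 h and Mmp9 at 48 h. In IP Adam17 and Mmp9 fell at 7 d. Of 14 inducers, 12 tested, Il6 rose in Input from 12 h to 7 d, at 24 h from 0.363 ± 0.261 to 4.50 ± 1.10 CPM (3.58 ± 0.37 on the log2 scale, edgeR adjusted p = 4.8e-10), and Stat3 and Rela were among the 5 that rose at 7 d, when 2 fell. In IP Stat3 rose from 12 to 72 h and Il1b fell at 7 d.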

How the data were processed

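Gene counts were deposited by the authors as 1 table of 24060 rows and 79 libraries. Per the submitters' processing notes, bcl2fastq 2.17, STAR and HTSeq were used with GRCm38 (mm10); neither strand nor multimapping settings were stated there. Per the labels' protocols, cDNA was made with SMART-Seq v4 and libraries with Nextera XT. The 27 rows whose names had become dates, 0.0346% to 0.214% of a library's counts, were left out. No pair of libraries of 1 group matched within sampling noise.

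edgeR 4.0.16 in R 4.3.3 (TMM scaling, filterByExpr, glmQLFit with robust estimation, quasi-likelihood F-test) compared each time with naive in each fraction, and IP with Input in 1 fit of all 14 groups. Benjamini-Hochberg adjustment ran over all genes tested, with 0.05 as the threshold. The procedure was tested on simulated data. DESeq2 1.42.0, RLE scaling, no filter, other library sizes, a block by replicate number, an Xist covariate, fits of 2 groups, edgeR's newer quasi-likelihood method (chosen after seeing the data) and leaving out libraries were alternatives. The genes and lists were chosen with earlier results of these data known. Counts and medians cover all 34 genes, of which 1 receptor is not reported here. Every other gene is named, as are the genes below 0.5 CPM that passed in IP and up to 3 genes of smallest adjusted p per pathway list and fraction. Some further pathway genes that fell are named too. Promoter sequences and gene positions are from RefSeq (GRCm38.p6).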

Additional observations from a re-analysis of the deposited data

Results flagged for a closer look

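A library far from the others of its group, by Dixon's criterion on log2(CPM + 1), was found in 19 of 329 groups of a chemokine gene with 4 to 10 libraries and a mean of at least 1 CPM, 5.78%. Chance alone flags about 1 in 20 groups. In Input these were the following. Ccl27a in Input 24 h replicate 1 stood at 35.6 CPM, below the others of its group at 59.4 to 68.1 CPM. Ccl7 in Input naive replicate 5 stood at 18.1 CPM, above the others of its group at 6.21 to 9.79 CPM. Ccr2 in Input 1 h replicate 3 stood at 6.59 CPM, above the others of its group at 1.5 to 2.40 CPM. Cx3cl1 in Input 1 h replicate 2 stood at 2.99 CPM, below the others of its group at 6.15 to 7.24 CPM. Cx3cl1 in Input 7 d replicate 1 stood at 11.9 CPM, above the others of its group at 10.3 to 10.4 CPM. Ccr1 in Input 72 h replicate 7 stood at 0.825 CPM, below the others of its group at 2.28 to 3.79 CPM.

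The others were IP libraries. Ccl27a in IP 72 h replicate 7 stood at 20.2 CPM, below the others of its group at 31.8 to 41.5 CPM. Ccl8 in IP 72 h replicate 5 stood at 14.05 CPM, below the others of its group at 26.4 to 37.1 CPM. Cxcl12 in IP 48 h replicate 3 stood at 53.8 CPM, above the others of its group at 21.7 to 30.3 CPM. Cxcl16 in IP 1 h replicate 3 stood at 0 CPM, below the others of its group at 5.96 to 11.4 CPM. Ccl7 in IP 72 h replicate 5 stood at 5.12 CPM, below the others of its group at 12.8 to 19.5 CPM. Ccl6 in IP 1 h replicate 3 stood at 9.38 CPM, above the others of its group at 0.470 to 1.52 CPM. Ccl2 in IP 48 h replicate 4 stood at 2.04 CPM, below the others of its group at 5.84 to 9.15 CPM. Ccl9 in IP 72 h replicate 2 stood at 0.338 CPM, below the others of its group at 3.98 to 9.85 CPM. Cxcl9 in IP 12 h replicate 3 stood at 27.4 CPM, above the others of its group at 0.734 to 3.63 CPM. Cxcr4 in IP 7 d replicate 4 stood at 0.18 CPM, below the others of its group at 2.53 to 3.27 CPM. Cxcl11 in IP naive replicate 5 stood at 7.15 CPM, above the others of its group at 0.170 to 1.29 CPM. Ccl24 in IP naive replicate 6 stood at 16.0 CPM, above the others of its group at 0.170 to 1.41 CPM. Cxcr6 in IP 1 h replicate 2 stood at 5.66 CPM, above the others of its group at 0 to 0.235 CPM.

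The response to injury of Ccl25 differed between IP and Input (edgeR adjusted p = 0.0278 for the 6 interaction terms together), with 4 of 5 IP libraries at 1 h below all naive IP libraries and Input libraries at 1 h within their naive range. With time and replicate number as a block Ccl25 did not pass this test, which was not refitted without single libraries.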

How the results depend on the processing

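Of 92 called single-gene results, 26 lost their call without some 1 library, and no result of these reversed under any setting tried. The averages of IP against Input, with 3 genes higher and 18 lower, were not refitted without single libraries. They are thus among the 66 others without having been tested in this way. RLE scaling ended 4 of 92 calls, no filter on low counts 4, the Xist covariate 4, edgeR's newer quasi-likelihood method 1, DESeq2 1 of 63, fits of 2 groups 15 of 59, and library sizes without Rn45s and Lars2 none. Counts of chemokine genes called moved as follows. In Input at 1 h, 7 became 2 in a fit of naive and that time alone and 11 in DESeq2. At 12 h, 3 became 0 in the fit of 2 groups, and at 24 h, 3 became 5 in DESeq2. In IP, DESeq2 called 7, 2, 6, 2 and 2 at 1, 12, 24, 48 and 72 h against 1, 0, 0, 1 and 1. The newer method called 4, 2, 4, 2, 2 and 8 at the 6 times and 18 over all times, against 9. Without libraries over 50% Rn45s and Lars2 the count was 2 at 1 h and 1 at 24 h. With the Xist covariate it was 1 at 24 h, and in a fit of 2 groups 1 at 12 h. Leaving out 1 library gave 3 to 12, 1 to 5, 3 to 5, 11 to 15, 7 to 12 and 14 to 18 in Input at the 6 times and 22 to 26 over all. In IP it gave 1 to 4, 0 to 2, 0 to 0, 0 to 1, 1 to 2 and 4 to 6, and 7 to 12 over all, and in naive IP against Input 4 to 10. Over all genes, IP calls at 1 h (0.541% of genes higher and 0.654% lower) became 671 in DESeq2, 82 without the ribosomal libraries and 60 with the Xist covariate. At 12 h (166 and 146) they became 746 in DESeq2 and 50 with the covariate, and at 24 h (268 and 83) 738 in DESeq2, 228 with the replicate block and 194 in a fit of 2 groups. At 48 h (336 and 137) DESeq2 called 800, and at 72 h (317 and 160) it called 803 and the fit of 2 groups 847. Input calls at 1 h (779 and 885) became 23 in the fit of 2 groups, those at 12 h (502 and 306) 211, or 381 with the covariate, and those at 24 h (1178 and 696) 1205. The cause of these shifts was not tested.

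Replicate numbers were not taken to pair libraries: deviations of IP and Input with the same number correlated from -0.279 to 0.372, over 0.1 in 22 of 39 pairs, and 21 libraries correlated best with their own number. All 7 pairs at 72 h and all 4 at 7 d were over 0.1, and 1 of 7 naive pairs was. The replicate block was the number alone within a fraction, and time and number together for IP against Input. Within a fraction, deviations of libraries of the same number at different times had a median correlation of 0.0258 in Input and -0.0189 in IP. The blocks ended 11 of 92 calls. In Input these were Ccl4 at 1 h (-2.93, edgeR adjusted p 0.0517), 12 h (-2.26, edgeR adjusted p 0.127) and 7 d (-1.08, edgeR adjusted p 0.336). Also ended in Input were Ccr1 at 48 h (1.05, edgeR adjusted p 0.0720), Cxcl11 at 72 h (-1.20, edgeR adjusted p 0.109) and Ccl25 at 7 d (-0.55, edgeR adjusted p 0.0846). In IP it was Ccl7 at 48 h (1.27, adjusted p 0.0837). In naive IP against Input they were Ccr1 (1.60, adjusted p 0.304), Cxcl14 (1.36, adjusted p 0.289) and Cxcr4 (1.21, adjusted p 0.0755), and over the 7 groups Ccr1 (0.42, adjusted p 0.482). The blocks gave 0 chemokine genes in IP at 48 h, 5 in naive IP against Input and 0 for the difference in response, which Ccl25 no longer passed. Shallow IP libraries and counts of a few reads per group limit the genes near 0.5 CPM.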
